A study of Mus musculus with 96 samples.

Results

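The UDP-glucuronosyltransferases (UGTs) examined here were 10 genes of the mouse liver, Ugt1a1, Ugt2a3, Ugt2b1, Ugt2b5, Ugt2b34, Ugt2b35, Ugt2b36, Ugt2b38, Ugt3a1 and Ugt3a2, chosen by symbol among 38924 genes with an expected count for each parental allele. A further 11 Ugt genes of the same tables served for comparison, and Ugt2a1 was not analysed here. Liver messenger RNA was read in 48 male F1 mice that were bred in both directions from PWK/PhJ, whose founders were caught in the wild, and NOD/ShiLtJ, a common model of autoimmune diabetes. The strain written first in a cross (PWKxNOD or NODxPWK) was taken as the dam. Diets held 0.05 g/kg (high) or 0.009 g/kg (normal) of cholecalciferol, which is vitamin D3, and mice were killed at an older or a younger age. As F1 animals, the mice carried 1 PWK and 1 NOD copy of each autosomal gene, and the 8 combinations of cross, diet and age held 6 mice each. The age labels read 24 or 25 for the older and 8 for the younger mice, with no unit, and differ from the ages in the labels' protocol, so ages are given only as older and younger. Label 25 was carried by 7 older mice on the normal diet. The labels number the mice of a group 1 to 6 by lane set, and each lane set held 1 mouse of each group. Replicates were separate mice that also differed in lane set and, in both older normal-diet groups, in age label, so p-values measure the spread between these mice.

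UGTs are membrane enzymes of the endoplasmic reticulum that join a sugar, in most cases glucuronic acid from UDP-glucuronate, to bilirubin, steroids, bile acids, phenols and drugs, which can then leave the cell by export pumps into bile or blood. The Ugt1a genes arise from 1 locus in which alternative first exons, each with its own promoter, are joined to the same set of downstream exons, whereas Ugt2a, Ugt2b and Ugt3a genes are separate genes in clusters. In the liver many of them respond to the nuclear receptors CAR and PXR and to the aryl hydrocarbon receptor, and bilirubin glucuronidation by UGT1A1 is the best known of their tasks.

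The coding sequences show where a read can and cannot tell these genes apart. For this check all stretches of 68 bases, the read length, were taken from the coding transcripts of GENCODE M21 on GRCm38 and searched for in the other genes. Of the stretches of Ugt1a1, 57.8% were identical in other genes, none of them outside the Ugt family. Reads from such stretches name the locus and not the gene, whereas the first exons differ. The sequences below lie in the first exons of Ugt1a1 (chr1:88212403-88212470) and Ugt1a9 (chr1:88071210-88071277), both on the plus strand, and differ at 32 bases, which are in capitals in the Ugt1a9 sequence.
Ugt1a1 first exon: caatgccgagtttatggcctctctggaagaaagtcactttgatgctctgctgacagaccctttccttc
Ugt1a9 first exon: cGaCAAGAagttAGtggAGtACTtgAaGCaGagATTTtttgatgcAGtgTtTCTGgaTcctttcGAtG

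The Ugt2b genes are separate genes of unequal likeness, and an aligned stretch of exon 1 shows how far each is from Ugt2b5. The stretch of Ugt2b5 lies at chr5:87139842-87139909 (minus strand). That of Ugt2b38 (chr5:87423707-87423774, minus strand) differs from it at 1 base, that of Ugt2b36 (chr5:87092060-87092127, minus strand) at 8 bases, and that of Ugt2b35 (chr5:87001286-87001353, plus strand) at 11 bases. Ugt2b34 (chr5:86906450-86906517, minus strand) differs at 18 bases and Ugt2b1 (chr5:86926034-86926101, minus strand) at 21 bases of the 68. Capitals mark the bases that differ from Ugt2b5.
Ugt2b5: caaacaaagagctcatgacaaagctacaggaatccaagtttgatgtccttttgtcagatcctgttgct
Ugt2b38: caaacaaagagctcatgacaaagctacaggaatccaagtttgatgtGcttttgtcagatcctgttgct
Ugt2b36: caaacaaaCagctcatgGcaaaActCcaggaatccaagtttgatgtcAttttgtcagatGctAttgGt
Ugt2b35: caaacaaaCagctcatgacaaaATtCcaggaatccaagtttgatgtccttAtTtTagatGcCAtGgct
Ugt2b34: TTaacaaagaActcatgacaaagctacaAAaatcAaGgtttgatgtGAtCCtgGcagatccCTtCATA
Ugt2b1: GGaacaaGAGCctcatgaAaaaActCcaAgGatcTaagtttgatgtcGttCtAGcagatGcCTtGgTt
Over whole genes, 32.7% of the stretches of Ugt2b5 and 29.8% of those of Ugt2b38 were identical in another gene, and 77.9% and 73.1% of them had a copy within 3 mismatches in the family. None of the stretches of Ugt2b1, Ugt2b35 or Ugt2b36 was identical in another gene. The counts of Ugt2b5 and Ugt2b38, and of each Ugt1a gene, therefore depend on how the authors' method shared out such reads.

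Of the stretches of the Ugt3a pair, 2.82% of those of Ugt3a1 and 3.18% of those of Ugt3a2 were identical in another gene, and 31.9% and 33.5% had a family copy within 3 mismatches. A stretch of exon 4 of 7 with 6 differences is shown, because the parental alleles of this pair behaved differently below. It lies at chr15:9361532-9361599 in Ugt3a2 and at chr15:9306159-9306226 in Ugt3a1, both on the plus strand, and capitals mark the bases of Ugt3a1 that differ.
Ugt3a2: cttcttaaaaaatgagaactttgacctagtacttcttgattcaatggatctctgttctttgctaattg
Ugt3a1: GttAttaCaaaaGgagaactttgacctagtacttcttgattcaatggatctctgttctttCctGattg

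Summed expected counts were 2025857 to 7480778 per mouse (median 5273518), and the 6 mice of the barcode read least had 2025857 to 3090625. The 10 hepatocyte markers summed to 81825 to 144940 CPM (counts scaled to a common library size), while 4 of 6 kidney tubule markers stayed under 1 count in all mice. Exocrine pancreas markers (12 genes) summed to 15.8 to 2121 CPM and were above 100 CPM in 8 mice. Libraries also differed in a clock gene score, the mean log2 CPM of 6 genes that peak with Dbp minus that of 4 genes that peak with Arntl, which ran from -2.82 to 4.16 over the 48 mice. Fits without those 8 mice, and with the clock score as a covariate, were chosen after seeing the data. Their values stand beside each call of the 10 Ugt genes that they changed, and for the gene lists they are given in part. Tests below are edgeR's quasi-likelihood tests on all 48 mice, with p-values adjusted over all 11979 genes tested and a threshold of 0.05, and all 10 genes passed the filter on low counts. Each difference is a log2 difference ± its standard error.

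All 10 genes were read in liver, but over a wide range of levels. Per kilobase of transcript, Ugt2b5 (chr5:87124960-87140318, minus strand) stood highest at 421 ± 63.6 CPM per kb (SD, n = 48 mice). Ugt2b36 (chr5:87065927-87092555, minus strand) followed at 299.7 ± 45.2 CPM per kb, and Ugt2b1 (chr5:86916638-86926530, minus strand) at 257 ± 48.8 CPM per kb. Ugt2b5 was above Ugt2b36 in 48 of 48 mice, whereas Ugt2b36 was above Ugt2b1 in 35 of 48, so these places overlapped. A middle group of 3 genes could not be ordered per kilobase. Ugt2a3 (chr5:87324972-87337195, minus strand) averaged 104 ± 14.8 CPM per kb, Ugt1a1 (chr1:88211959-88218997, plus strand) 99.7 ± 25.9 CPM per kb and Ugt2b34 (chr5:86889767-86906937, minus strand) 98.1 ± 24.8 CPM per kb. Ugt2a3 was above Ugt1a1 in 30 of 48 mice, and Ugt1a1 above Ugt2b34 in 23 of 48. The length of Ugt2b34 was that of its longest coding transcript, 4312 bases, against 2117 for Ugt2a3 and 2224 for Ugt1a1. Not scaled by length, Ugt2b34 had a mean of 2175.8 counts, against 1141.3 and 1154.5. The place of Ugt2b34 thus depends on the transcript taken.

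Below them came Ugt3a2 (chr15:9335550-9370955, plus strand) at 64.7 ± 6.85 CPM per kb and Ugt3a1 (chr15:9276888-9315032, plus strand) at 57.6 ± 9.70 CPM per kb, with Ugt3a2 the higher in 34 of 48 mice. Ugt2b35 (chr5:87000860-87013275, plus strand) had 38.7 ± 10.8 CPM per kb. Ugt2b38 (chr5:87409942-87424203, minus strand) was barely read, at 1.01 ± 0.916 CPM per kb and 0 to 49 counts per mouse, and 29.3% of its 68-base stretches are identical in Ugt2b5. How much of the Ugt2b38 count came from Ugt2b5 transcripts was not tested.

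**Figure D1:**
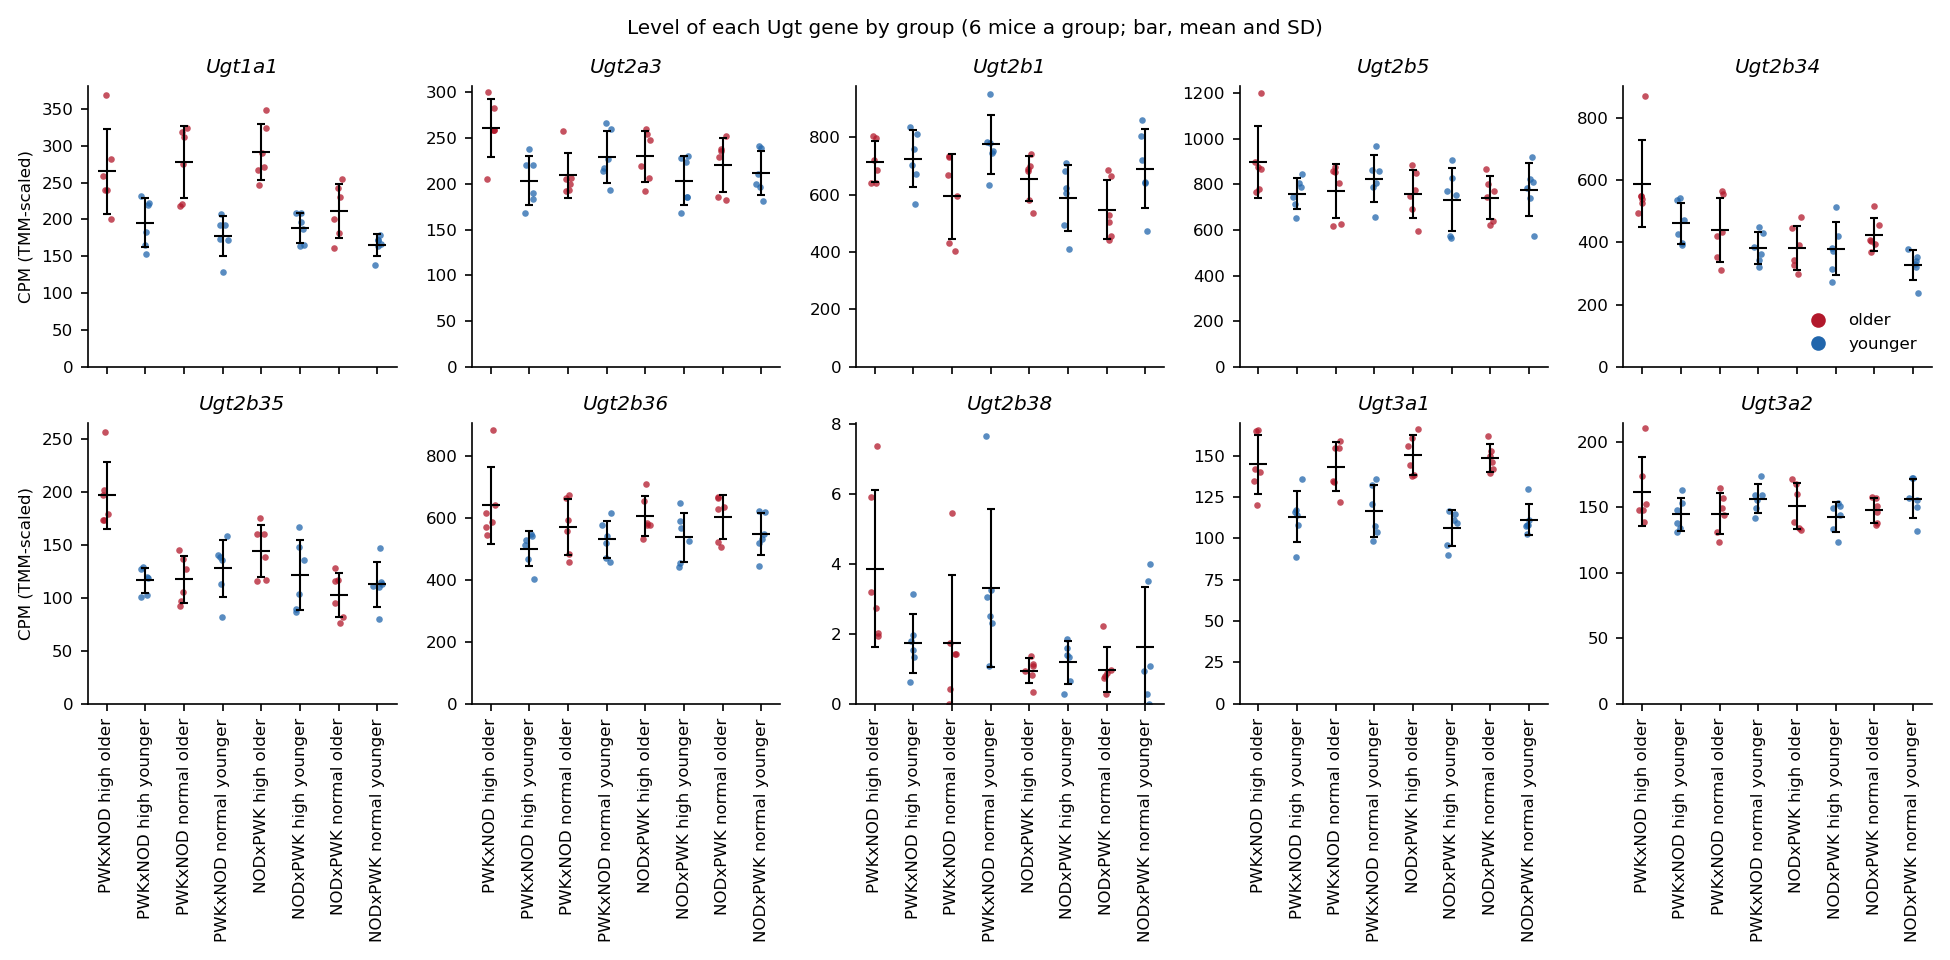
Level of each of the 10 Ugt genes in CPM (vertical axes, linear from 0, TMM-scaled and not per length) by group of 6 mice; each point is a mouse, red older and blue younger, and bars show the mean and SD. Ugt1a1 and Ugt3a1 are higher in the older groups, Ugt2b35 stands out in older mice on the high diet, and Ugt2b38 reaches at most 7.63 CPM.

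Older mice had more transcript of 4 of the 10 genes, Ugt1a1, Ugt3a1, Ugt2b34 and Ugt2b36, and none was called lower. Over all genes tested, 12% were called with age (6.42% higher and 5.59% lower), and the median log2 difference was 0.15 over the 10 genes and -0.00 over all genes. In such bulk tissue, fewer cells of a type and less RNA per cell cannot be told apart. Ugt1a1, the bilirubin-conjugating enzyme, had 161, 257 and 369 CPM (lowest, median and highest) in older mice, against 128, 177 and 231 CPM in younger mice. Of the 24 older mice, 17 lay above the highest younger mouse. The difference was 0.52 ± 0.064 (1.43-fold; adjusted p = 3.45e-08, edgeR's quasi-likelihood test), and it was 0.45 to 0.56 when each of the 6 lane sets was left out in turn.

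Ugt3a1 separated the ages most cleanly. Human UGT3A1 uses UDP-N-acetylglucosamine rather than UDP-glucuronate as its sugar donor. Its level was 120, 145 and 166 CPM in older mice, against 88.3, 110 and 136 CPM in younger mice (lowest, median and highest, 24 mice each). Of the older mice 19 lay above the highest younger mouse, and 19 younger mice lay below the lowest older mouse. The difference was 0.39 ± 0.045 (1.31-fold; adjusted p = 4.53e-09, edgeR's quasi-likelihood test). Its neighbour Ugt3a2, whose human counterpart uses UDP-glucose and UDP-xylose, averaged 151 ± 18.3 CPM in older mice and 150 ± 13.6 CPM in younger mice, a difference of 0.01 ± 0.043. Ugt3a1 thus made up 49.3 ± 2.13% of the Ugt3a counts in older mice and 42.6 ± 1.94% in younger mice (SD, n = 24 each).

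The Ugt2b genes, which mainly conjugate steroids and bile acids, moved little with age. Ugt2b36 had 457, 588 and 882 CPM in older mice, against 401, 530 and 646 CPM in younger mice. The ages overlapped broadly, with 7 of 24 older mice above the highest younger mouse, and the difference was 0.20 ± 0.056 (adjusted p = 0.0132, edgeR's quasi-likelihood test). Ugt2b34 had 298, 440 and 872 CPM in older mice, against 238, 381 and 542 CPM in younger mice, a difference of 0.24 ± 0.072 (adjusted p = 0.0231). Only 5 older mice lay above the highest younger mouse. Both calls were lost without the 7 mice labelled 25 (0.18, adjusted p = 0.120 for Ugt2b36 and 0.17, adjusted p = 0.337 for Ugt2b34) and without the 8 mice with pancreas transcripts (0.16, adjusted p = 0.0515 and 0.16, adjusted p = 0.147). That of Ugt2b34 was also lost without lane set 1, 5 or 6 (0.18 to 0.23, adjusted p = 0.131, 0.0826 and 0.0564).

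The remaining genes were not called with age. Ugt2b5 averaged 792 ± 129 CPM in older mice and 773 ± 108 CPM in younger mice, Ugt2b1 628 ± 117 and 695 ± 128 CPM, and Ugt2a3 230.1 ± 33 and 212 ± 27.1 CPM in the same order of ages. Their log2 differences were 0.03 ± 0.060, -0.15 ± 0.070 and 0.12 ± 0.052. For Ugt2b35 the difference was 0.19 ± 0.078 (adjusted p = 0.111), and for the scarce Ugt2b38 it was -0.18 ± 0.30. The summed Ugt2b counts differed by 0.06 ± 0.060 (adjusted p = 0.593).

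The Ugt1a genes differed in how they went with age. Among the other Ugt1a genes, Ugt1a6b (0.30 ± 0.060, adjusted p = 3.21e-04) and Ugt1a6a (0.19 ± 0.051, adjusted p = 0.00719) were higher in older mice, and Ugt1a5 was lower (-0.63 ± 0.18, adjusted p = 0.0148, all by edgeR's quasi-likelihood test). Without the mice labelled 25 neither Ugt1a6b (0.20, adjusted p = 0.131) nor Ugt1a6a (0.11, adjusted p = 0.408) was called, and Ugt1a6a was not called without the mice with pancreas transcripts (0.16, adjusted p = 0.0648). Of 17 genes of the Ugt family tested, 6 were called higher and 1 lower with age. Without the mice with pancreas transcripts, 3 were called higher and 2 lower, of 18 tested. UGT1A6 enzymes conjugate small planar phenols. Ugt1a9, the most counted gene of the locus, averaged 391 ± 73.9 CPM in older mice and 416 ± 36.2 CPM in younger mice. Ugt1a1 made up 29.6 ± 5.04% of the summed Ugt1a counts in older mice and 22.1 ± 2.65% in younger mice (SD, n = 24 each). The summed Ugt1a counts averaged 884 ± 90.8 CPM in older mice and 821 ± 56.7 CPM in younger mice, a difference of 0.10 ± 0.038 (unadjusted p = 0.00995 and adjusted p = 0.0721, edgeR's quasi-likelihood test). Since 57.8% of the Ugt1a1 stretches are shared, these shares rest on reads of the first exons and on how the authors' method placed the others.

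**Figure D2:**
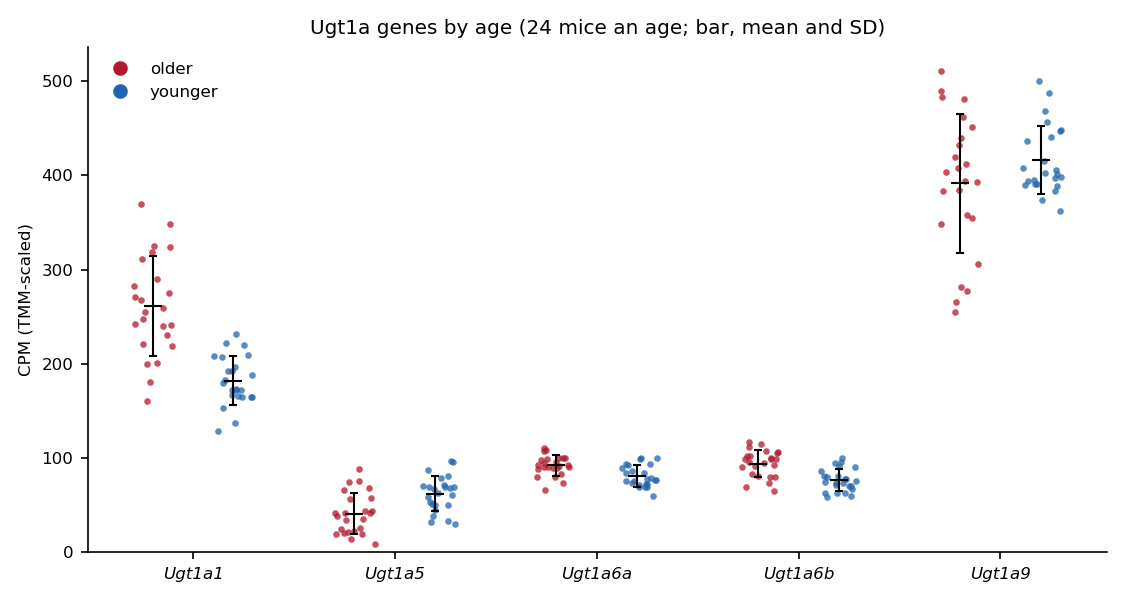
Level in CPM (vertical axis, linear from 0) of 5 Ugt1a genes that passed the filter on low counts, in 24 older (red) and 24 younger (blue) mice. Points are mice, and bars show the mean and SD. The scarce Ugt1a7c also passed the filter and is not drawn. Ugt1a1 is higher in older mice (161 to 369 CPM) than in younger mice (128 to 231 CPM), while Ugt1a9 overlaps fully and Ugt1a5 is lower in older mice.

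Bile duct markers (5 genes) were also higher with age, with summed levels of 28.2 to 122 CPM in older mice and 23.4 to 40.04 CPM in younger mice, and both members that passed the filter were called higher. The clock score was -2.82 to 3.95 in older mice and 0.477 to 4.16 in younger mice. With the score in the fit, Ugt1a1 (0.56, adjusted p = 1.79e-06) and Ugt3a1 (0.38, adjusted p = 3.70e-06) remained called, as did Ugt2b36 (0.22, adjusted p = 0.0404) and Ugt2b34 (0.30, adjusted p = 0.0374), all by edgeR's quasi-likelihood test. The part of the bile duct markers in these results was not tested.

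Genes around the glucuronidation pathway are set beside these calls. Their lists were chosen with earlier results of these data known, so they are no independent background. Over all genes tested, 6.42% were called higher with age and 5.59% lower. Of 10 genes that supply or hydrolyse UDP-glucuronate, only Ugdh was called with age, higher by 0.31 ± 0.053 (adjusted p = 3.15e-05, edgeR's quasi-likelihood test). With the clock score in the fit, 2 of the 10 were called higher. Ugdh makes UDP-glucuronate from UDP-glucose. Of 16 genes of bilirubin handling and organic ion transport, 6 were higher and 3 lower in older mice. These counts were 4 and 2 without the mice with pancreas transcripts, and 5 and 2 with the clock score. Among the strongest were the efflux pump Abcg2 (0.41 ± 0.055), which was higher, and the bile acid importer Slc10a1 (-0.29 ± 0.048) and the haem oxygenase Hmox1 (-0.46 ± 0.10), both lower. Of 22 regulators 1 was called, the aryl hydrocarbon receptor Ahr, higher by 0.35 ± 0.105 (adjusted p = 0.0184). It was not called without the mice labelled 25 (0.09, adjusted p = 0.784), without those with pancreas transcripts (0.31, adjusted p = 0.0965) or with the clock score (0.41, adjusted p = 0.0517). Without the mice labelled 25 the transport genes had 2 higher and 2 lower calls.

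Of 21 genes listed as targets of CAR, PXR, PPAR alpha or the aryl hydrocarbon receptor, 10 were higher with age and none was called lower, with a median log2 difference of 0.43. They included the retinaldehyde dehydrogenase Aldh1a1 (0.69 ± 0.067), the epoxide hydrolase Ephx1 (0.51 ± 0.065) and the cytochromes P450 Cyp2c50 (0.61 ± 0.087) and Cyp2c54 (0.75 ± 0.11). Over all genes tested, 6.42% were called higher with age and 5.59% lower. With the clock score in the fit, 9 target genes were called higher. Of 21 other conjugating enzymes tested, 4 were higher and 1 lower. Their counts were 3 and 0 without the mice with pancreas transcripts, and 4 and 0 with the clock score. The acetyltransferase Nat8 rose by 1.05 ± 0.16 and the glutathione transferase Gstp1 by 0.33 ± 0.073 (adjusted p = 0.00127, edgeR's quasi-likelihood test). Without the mice labelled 25, 7 target genes were called higher, with a median of 0.24, and the other conjugating enzymes had 2 higher and 2 lower calls.

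**Figure D3:**
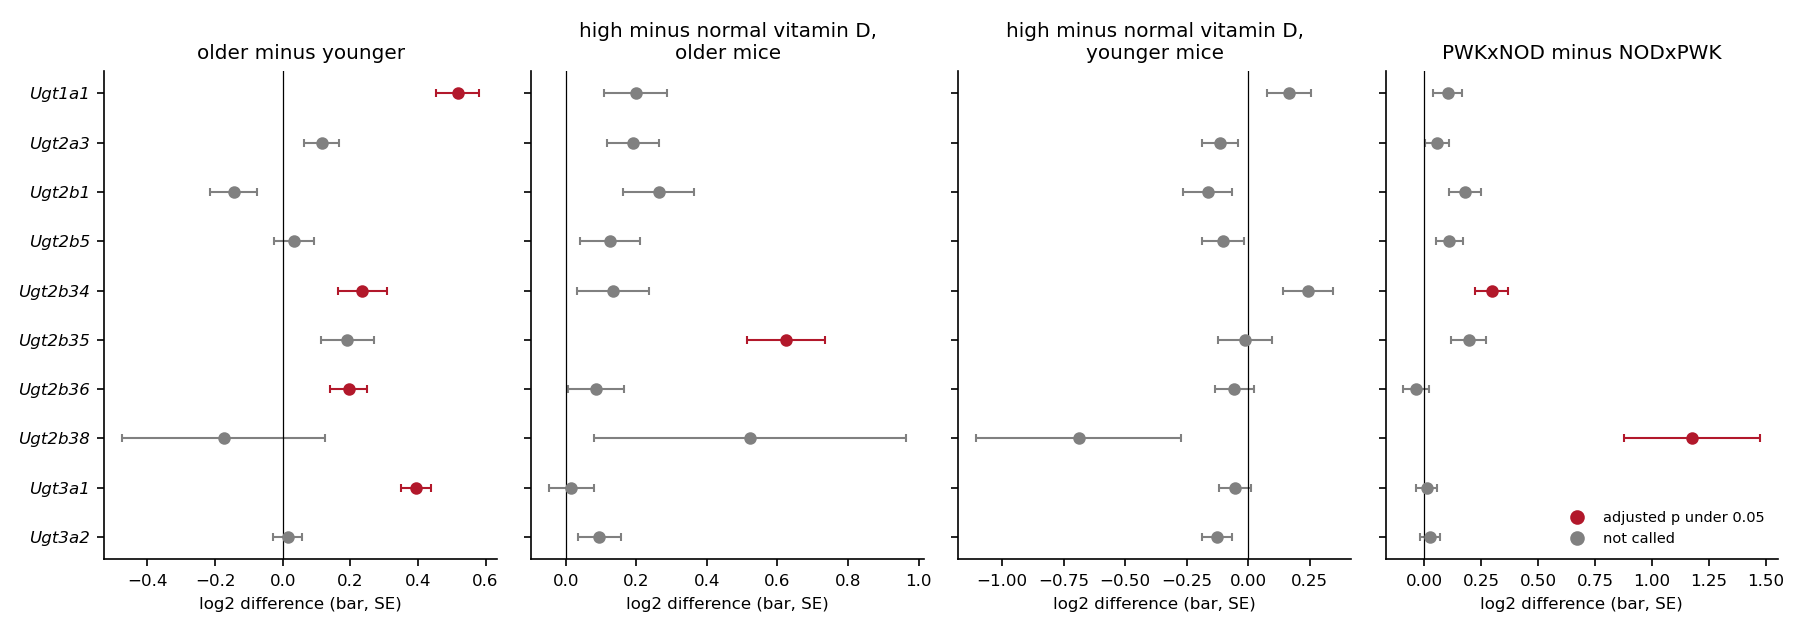
Log2 difference (horizontal axes, points) and its standard error (bars) of the 10 Ugt genes in 4 comparisons; red points have an adjusted p under 0.05, grey points do not, and the axes differ in range. Age gives 4 red points, all above 0, the diet gives 1 in older mice (Ugt2b35, 0.62) and none in younger mice, and the cross gives 2 (Ugt2b34 and Ugt2b38).

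Across both ages, none of the 10 genes was called between the high and the normal vitamin D diet, where 0.342% of all genes were called, 41 of 11979. Ugt2b35 came closest, at 0.30 ± 0.078 (adjusted p = 0.0605, edgeR's quasi-likelihood test), and it passed with DESeq2 (0.31, adjusted p = 0.0230) and without lane set 5 (0.37, adjusted p = 0.0388). At an unadjusted p under 0.05, Ugt1a1 (0.18 ± 0.064) and Ugt2b34 (0.19 ± 0.072) also lay on the higher side. The other 7 genes had log2 differences between -0.08 (Ugt2b38) and 0.05 (Ugt2b1), with Ugt2a3, Ugt2b5, Ugt2b36, Ugt3a1 and Ugt3a2 between them.

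Among older mice the diet comparison called 1 of the 10 genes, Ugt2b35, with 3.71% of all genes called (1.9% higher and 1.81% lower). Its level was 116, 173 and 257 CPM on the high diet, against 76.7, 110 and 146 CPM on the normal diet (lowest, median and highest, 12 mice each). Of the 12 older mice on the high diet, 9 lay above the highest on the normal diet, and 7 of the normal-diet mice lay below the lowest on the high diet. The difference was 0.62 ± 0.11 (1.54-fold; adjusted p = 6.62e-04, edgeR's quasi-likelihood test). It was seen in both crosses, with means of 197 ± 31.6 CPM on the high and 118 ± 22.1 CPM on the normal diet in PWKxNOD mice, and of 145 ± 24.7 and 102 ± 21 CPM in NODxPWK mice (SD, n = 6 each). In younger mice Ugt2b35 averaged 119 ± 24.0 CPM on the high diet and 120.4 ± 24.5 CPM on the normal diet, a difference of -0.01 ± 0.11. None of the 11979 genes was called there (0.0%) by edgeR and 10 by DESeq2, and of the 10 Ugt genes Ugt2b34 (0.24 ± 0.1025) and Ugt3a2 (-0.13 ± 0.061) had an unadjusted p under 0.05. The other differences in younger mice lay between -0.69 ± 0.42 (Ugt2b38) and 0.17 ± 0.090 (Ugt1a1).

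Across the 10 genes, the median diet difference was 0.16 in older mice and -0.08 in younger mice, against -0.01 and 0.00 over all genes. The diet difference of Ugt2b35 was larger in older than in younger mice by 0.64 ± 0.16 (adjusted p = 0.0430, edgeR's quasi-likelihood test of the interaction, in which 0.618% of all genes were called). This interaction lay close to the threshold. It was lost without lane set 1, 2, 4, 5 or 6 (0.55 to 0.68, adjusted p = 0.0606 to 0.287) and kept without lane set 3. It was also lost with the clock score in the fit (0.59, adjusted p = 0.111) and without the mice with pancreas transcripts (0.56, adjusted p = 0.190). The diet difference within older mice kept its call under those settings (0.55, adjusted p = 0.0374 with the clock score and 0.49, adjusted p = 0.0281 without pancreas transcripts). It was lost without the 7 mice labelled 25 (0.46, adjusted p = 0.380), where the interaction was 0.48 (adjusted p = 0.533). All 7 were older mice on the normal diet, so that fit rests on 5 older normal-diet mice, 1 of them NODxPWK.

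**Figure D4:**
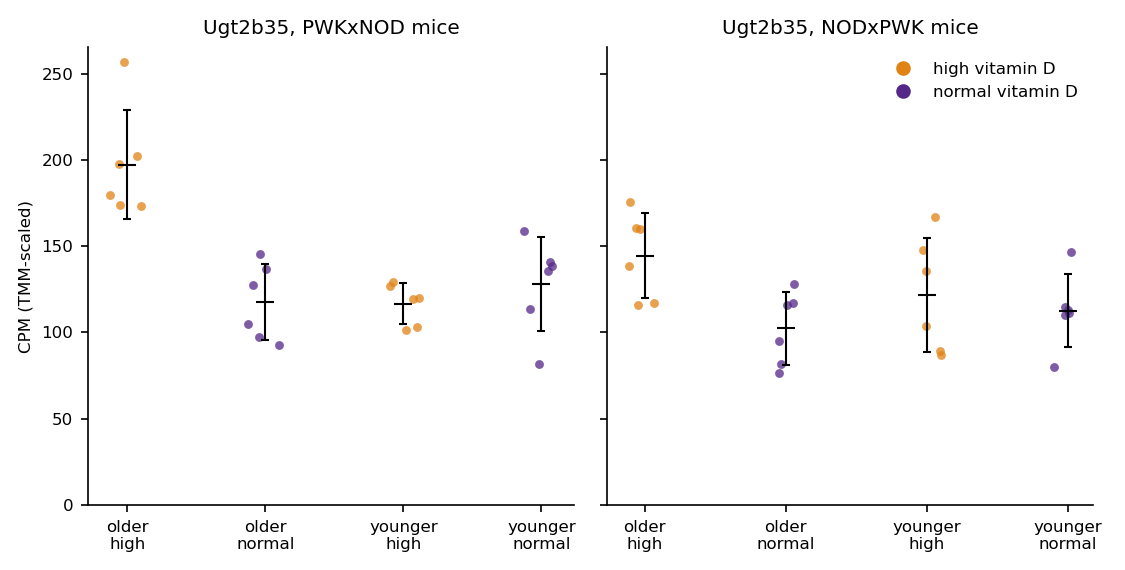
Ugt2b35 level in CPM (vertical axis, linear from 0) in PWKxNOD mice (left) and NODxPWK mice (right) by age and diet; orange is the high and purple the normal vitamin D diet, points are mice, bars show the mean and SD of 6 mice. In both crosses the older high-diet group has the highest mean, 197 CPM in PWKxNOD and 145 CPM in NODxPWK mice, and the younger groups overlap.

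Other genes in older mice were not called for diet. Ugt2b1 averaged 685 ± 78.2 CPM on the high diet and 571 ± 124 CPM on the normal diet (0.26 ± 0.0995, adjusted p = 0.139), and Ugt2a3 245 ± 32.8 and 215 ± 26.4 CPM (0.19 ± 0.073, adjusted p = 0.145, both by edgeR's quasi-likelihood test). Ugt1a1 differed by 0.20 ± 0.089, Ugt2b5 by 0.12 ± 0.085, Ugt2b34 by 0.13 ± 0.10 and Ugt2b36 by 0.09 ± 0.078. Ugt3a1 differed by 0.02 ± 0.063, Ugt3a2 by 0.10 ± 0.061 and Ugt2b38 by 0.52 ± 0.44. Of the other Ugt genes, Ugt1a9 was called lower, with 350 ± 62.8 CPM on the high diet and 433 ± 60.7 CPM on the normal diet (SD, n = 12 each; -0.31 ± 0.064, adjusted p = 0.00290). Without the mice labelled 25 it was not called (-0.31, adjusted p = 0.213).

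Of the listed target genes, 9 of 21 were lower on the high diet in older mice and none was called higher, with a median log2 difference of -0.36. All calls of the lists in this comparison were lost without the 7 older normal-diet mice labelled 25, where the median of the target genes was -0.03 and 5 genes in all were called. With the clock score in the fit 3 target genes were called lower, and 2 when the 8 mice with pancreas transcripts were left out. Among the 9 called in the main fit were the fatty acid hydroxylases Cyp4a10 (-2.39 ± 0.42) and Cyp4a14 (-2.35 ± 0.52). The epoxide hydrolase Ephx1 (-0.57 ± 0.091) and the glutathione transferase Gsta2 (-0.83 ± 0.18) were also among these 9. In this comparison, 1.81% of all genes tested were called lower and 1.9% higher. Of 22 regulators, the PXR gene Nr1i2 was lower (-0.42 ± 0.13, adjusted p = 0.0478, edgeR's quasi-likelihood test), and of 16 transport genes the anion transporter Slc22a7 was higher (1.18 ± 0.195) and the conjugate exporter Abcc3 lower (-0.47 ± 0.10). None of the 10 genes of UDP-glucuronate supply was called by edgeR, and Slc35a3 (0.24 ± 0.078) and Gusb (0.15 ± 0.0698) had an unadjusted p under 0.05. Of 21 other conjugating enzymes, Gsta3 and Gstt1 were lower. Nr1i2, Abcc3 and Gstt1 were not called without the mice with pancreas transcripts or with the clock score (adjusted p = 0.0542 to 0.493). Bile duct markers summed to 42.4 to 122 CPM on the high diet and 28.2 to 58.8 CPM on the normal diet in older mice, with 1 of 2 tested members called higher, and the clock score was -2.82 to 3.95 and -2.67 to 2.46 in the same order of diets. The part of the bile duct markers in the Ugt2b35 difference was not tested.

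Between the crosses, 2 of the 10 genes were called, both higher in PWKxNOD mice, with 10.7% of all genes called (5.36% higher and 5.33% lower). Ugt2b34 had 311, 441 and 872 CPM in PWKxNOD mice, against 238, 376 and 517 CPM in NODxPWK mice (lowest, median and highest, 24 mice each). Of the PWKxNOD mice 9 lay above the highest NODxPWK mouse, and the difference was 0.30 ± 0.072 (1.23-fold; adjusted p = 0.00352, edgeR's quasi-likelihood test). Ugt2b38 was read at 2.65 ± 2.02 CPM in PWKxNOD mice and 1.18 ± 0.948 CPM in NODxPWK mice, a difference of 1.18 ± 0.30 (adjusted p = 0.00547) on a mean of 10 counts. Its close relative Ugt2b37, as scarce, differed by 1.28 ± 0.29 (adjusted p = 0.00143), with 2.26 ± 2.15 CPM in PWKxNOD mice and 0.870 ± 0.607 CPM in NODxPWK mice. The filter on low counts needs enough counts only in as many mice as 1 group holds. Both scarce genes could therefore pass it through the cross where they were higher. Ugt2b38 was also called with no such filter. Of the more abundant Ugt genes, Ugt1a9 was lower in PWKxNOD mice (-0.14 ± 0.045, adjusted p = 0.0447). Ugt2b37 was not called without the mice labelled 25 (1.04, adjusted p = 0.102), Ugt1a9 not without those with pancreas transcripts (-0.12, adjusted p = 0.176), and neither with the clock score (adjusted p = 0.473 and 0.994).

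The other 8 genes were not called, with log2 differences of 0.19 for Ugt2b35, 0.18 for Ugt2b1, 0.11 for Ugt2b5, 0.10 for Ugt1a1, 0.05 for Ugt2a3, 0.02 for Ugt3a2, 0.01 for Ugt3a1 and -0.04 for Ugt2b36.

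The crosses also differed in measures that are no feature of the Ugt genes. The clock score was 0.873 to 4.16 in PWKxNOD mice and -2.82 to 2.55 in NODxPWK mice, and 7 of 12 pancreas markers were called higher in PWKxNOD mice. With the clock score in the fit, neither gene was called (Ugt2b34 0.18, adjusted p = 1.00, and Ugt2b38 0.96, adjusted p = 0.919), and neither was called without the mice labelled 25 (0.26, adjusted p = 0.0868, and 1.25, adjusted p = 0.0783). Without the mice with pancreas transcripts both were called, Ugt2b34 at 0.25 (adjusted p = 0.0154, edgeR's quasi-likelihood test). The count was 4 without lane set 3, where Ugt2b1 (0.23, adjusted p = 0.0494) and Ugt2b35 (0.28, adjusted p = 0.0265) passed too. Cross and clock score ran together in these mice and cannot be told apart.

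Outside the family, the P450 reductase gene Por was higher in PWKxNOD mice by 1.25 ± 0.16, and the bile acid receptor gene Nr1h4 by 0.30 ± 0.054. In all, 3 of 22 regulators were higher and 1 lower, 2 of 21 target genes higher and 3 lower, and 2 of 16 transport genes higher. Por is on both the regulator and the target list and was counted in each. Over all genes tested, 5.36% were called higher and 5.33% lower. Without the mice with pancreas transcripts, 3 regulators were higher and 0 lower, 2 target genes higher and 2 lower, and 1 transport gene higher. With the clock score none of these genes was called (Por 0.46, adjusted p = 0.914 and Nr1h4 0.08, adjusted p = 1.00). The age by cross interaction called none of the 10 genes, with 0.0501% of all genes called (0.0334% higher and 0.0167% lower). None had an unadjusted p under 0.05, and the log2 values lay between -0.14 (Ugt3a1) and 0.59 (Ugt2b38). The diet by cross interaction called none either, with 0.125% of all genes called (0.0584% higher). There Ugt1a1 (-0.28 ± 0.13) and Ugt2b34 (0.32 ± 0.145) had an unadjusted p under 0.05 (adjusted p = 0.310 and 0.316, edgeR's quasi-likelihood test), and the other 8 lay between 0.01 (Ugt2b35) and 0.36 (Ugt2b38).

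The parental alleles differed in level for most of the genes. Of the 9 genes with enough counts to test, 4 had more PWK than NOD transcript and 4 had less, with 43.6% of 9362 autosomal genes called (20.9% towards PWK and 22.8% towards NOD). Ugt2b38 was left out, since its mean of 10 counts lay under the minimum of 20. Shares below are PWK counts in percent of the PWK and NOD counts of a gene in 1 mouse. Over all autosomal genes this share was 46 to 48.6% per mouse. On the X chromosome, which males receive from the dam, 4.29 to 6.59% of counts per mouse were given to the strain that was not the dam.

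**Figure D5:**
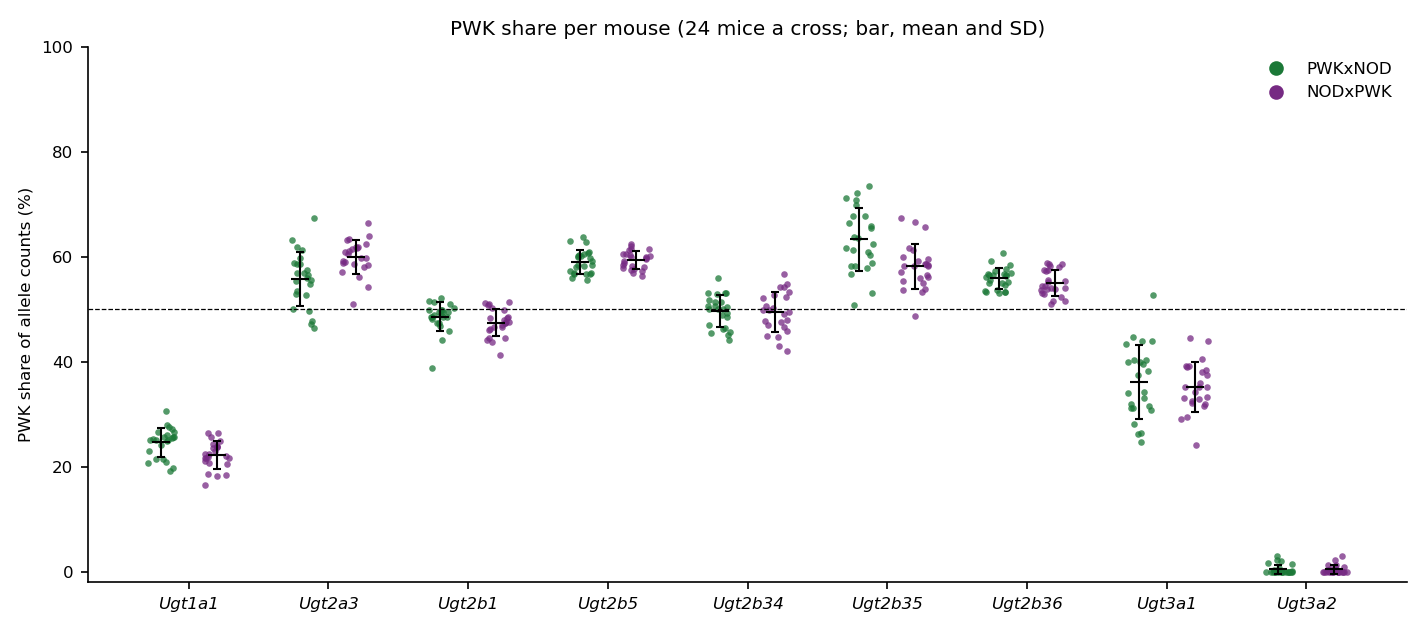
PWK share of the allele counts in percent (vertical axis, 0 to 100) of 9 Ugt genes in 24 PWKxNOD (green) and 24 NODxPWK (purple) mice; points are mice, bars show the mean and SD, and the dashed line marks equal alleles. Ugt3a2 lies at 0 to 2.99%, Ugt1a1 at 16.5 to 30.6% and Ugt3a1 mostly below 50%, while Ugt2a3, Ugt2b5, Ugt2b35 and Ugt2b36 lie mostly above it.

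Ugt3a2 was read almost wholly from the NOD allele. The PWK allele had 0 to 18.6 counts per mouse, summing to 178 over 48 mice, against 298 to 1169 counts per mouse for the NOD allele, summing to 37467. The PWK share averaged 0.490 ± 0.843% (SD, n = 48), and 30 of 48 mice had under 1 PWK count. At the median depth, a count of 0 allows a share of up to 0.369%, for counting error only. The highest share of any mouse, 2.99%, lay below the 4.29% at which X-linked counts were given to the wrong strain. That X-linked share is a sum over genes and gives no error rate for Ugt3a2 alone. In 18 of 48 mice the PWK allele had 1 or more counts in what the authors' method gave to this gene. Whether these few counts came from PWK transcripts was not tested. The fitted log2 ratio was -8.25 ± 0.23 (adjusted p = 2.71e-30, edgeR's quasi-likelihood test), a size that depends on the small count added to each allele.

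Its neighbour Ugt3a1 also favoured the NOD allele, but far less. The PWK allele was read at 46.1 ± 10.2 CPM and the NOD allele at 83.1 ± 16.4 CPM (SD, n = 48). The PWK share was 24.1, 35.2 and 52.7% (lowest, median and highest), and the log2 ratio was -0.86 ± 0.052 (adjusted p = 1.99e-18, edgeR's quasi-likelihood test). The highest share of Ugt3a2 in any mouse lay below the lowest share of Ugt3a1. Taken as 1 sum, the Ugt3a genes had a PWK share of 16.7 ± 3.17% and a log2 ratio of -2.34 ± 0.047. Part of the sequence of the pair is alike, and whether PWK reads of Ugt3a2 were placed on Ugt3a1 was not tested.

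The Ugt1a locus was read mainly from the NOD allele. For Ugt1a1 the PWK allele gave 52.2 ± 15.6 CPM and the NOD allele 170 ± 43.8 CPM, a PWK share of 16.5, 23.9 and 30.6% (lowest, median and highest of 48 mice). The log2 ratio was -1.71 ± 0.031 (adjusted p = 1.30e-37, edgeR's quasi-likelihood test), with every mouse below 50%. The summed Ugt1a genes had a log2 ratio of -1.50 ± 0.019 and a mean PWK share of 26.2 ± 1.68%. Single genes of the locus differed, with log2 ratios of -1.53 ± 0.040 for Ugt1a9, -0.93 ± 0.043 for Ugt1a6a, -5.21 ± 0.26 for Ugt1a6b and 1.04 ± 0.145 for Ugt1a5. Reads of the shared exons carry the strain but not the gene, so these single-gene ratios are less certain than the sum.

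On chromosome 5 the cluster leaned the other way. Ugt2b35 had the highest PWK share at 60.8 ± 5.77% (log2 ratio 0.64 ± 0.040), followed by Ugt2b5 at 59.3 ± 2.00% (0.54 ± 0.016), Ugt2a3 at 57.9 ± 4.80% (0.46 ± 0.031) and Ugt2b36 at 55.5 ± 2.25% (0.32 ± 0.019). Ugt2b5 and Ugt2b36 were above 50% in every mouse, with lowest shares of 55.7 and 51.0%. Ugt2b1 lay slightly below 50% at 48.0 ± 2.71% (-0.11 ± 0.021, adjusted p = 1.13e-05, edgeR's quasi-likelihood test). This mean is within the 46 to 48.6% per mouse over all autosomal genes. Ugt2b34 at 49.6 ± 3.45% was not called (-0.02 ± 0.028, adjusted p = 0.556). Taken as 1 sum, the Ugt2b genes had a PWK share of 54.0 ± 1.37% and a log2 ratio of 0.23 ± 0.011, which is on the other side of 0 from the ratios of Ugt2b1 and Ugt2b34. The deposited share of Ugt2b5 and of Ugt2b38 rests in part on reads that both genes could give. The PWK allele of Ugt2b38 had 29.1 counts over 48 mice, against 452 for the NOD allele.

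Parent of origin called none of the 9 genes, with 0.267% of genes called, and Ugt1a1, Ugt2a3 and Ugt2b35 had an unadjusted p under 0.05. Nearest were Ugt2b35 with a maternal over paternal log2 ratio of 0.16 ± 0.040 (adjusted p = 0.101) and Ugt2a3 with -0.12 ± 0.031 (adjusted p = 0.108, both by edgeR's quasi-likelihood test). Ugt2b35 passed without lane set 4 (0.20, adjusted p = 0.0108) and without the mice with pancreas transcripts (0.19, adjusted p = 0.0288). Its PWK share was 63.3 ± 6.02% in PWKxNOD mice and 58.3 ± 4.28% in NODxPWK mice.

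Age was called for the allele ratio of 1 of the 9 genes, Ugt2a3, with 0.705% of genes called (0.363% higher). Ugt2b35 had a log2 difference of like size on the other side (-0.27 ± 0.080, adjusted p = 0.158), and it and Ugt3a2 had an unadjusted p under 0.05. Human UGT2A3 conjugates bile acids. The PWK share of Ugt2a3 was 53.5, 59.5 and 67.4% in older mice, against 46.5, 56.4 and 61.9% in younger mice (lowest, median and highest, 24 mice each). Of the older mice 8 lay above the highest younger mouse. The PWK over NOD ratio was higher in older mice by 0.27 ± 0.063 (adjusted p = 0.0184, edgeR's quasi-likelihood test). In CPM, the PWK allele averaged 138 ± 19.7 in older mice and 118 ± 18.4 in younger mice, and the NOD allele 91.8 ± 16.5 and 94.0 ± 15.5 in the same order. The call was lost without lane set 1, 2, 5 or 6 (0.27 to 0.28, adjusted p = 0.0794 to 0.103), without the mice labelled 25 (0.26, adjusted p = 0.188) and without the mice with pancreas transcripts (0.24, adjusted p = 0.172). Diet called none of the 9 ratios, with 0.0214% of genes called. Ugt2b1, Ugt2b5 and Ugt3a2 had an unadjusted p under 0.05 there.

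Mouse by mouse, after removing the 8 group means, several Ugt2b genes and Ugt3a2 varied together. Over the 48 mice the Pearson correlation of log2 CPM was 0.93 between Ugt2b36 and Ugt2b5, 0.85 between Ugt2b35 and Ugt2b5 and 0.83 between Ugt2b34 and Ugt2b5. Ugt3a2 correlated by 0.82 with Ugt2b36, by 0.82 with Ugt2b5 and by 0.81 with Ugt2b34. Ugt1a1 went less with the others, with at most 0.40 (Ugt2b36) and at least -0.11 (Ugt2b38). These values share the library and its scaling, and Ugt2b5 and Ugt2b36 share similar sequence. Outside the family, the genes most like each member by the same measure were Cyp2c37 (0.86) and Cyp2c54 (0.84) for Ugt1a1, Mup7 (0.84) and Mup3 (0.80) for Ugt2b1, and Mup3 (0.80) and Zfp966 (0.78) for Ugt2a3. For Ugt2b36 they were the mitochondrial genes mt-Atp6 (0.92) and mt-Nd4 (0.91), for Ugt2b5 mt-Atp6 (0.84) among others, for Ugt2b34 Apob (0.88) and Tm9sf2 (0.82), and for Ugt2b35 Gm8893 (0.81) and Hsd3b2 (0.78). Lamp2 was the nearest to both Ugt3a1 (0.79) and Ugt3a2 (0.85), followed by Tspan12 (0.78) and F9 (0.85). Ugt2b38 reached 0.67 with Nrp1 and 0.63 with Aox3, and 0.61 and 0.50 without the 2 mice farthest from the median.

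Promoter sequences of RefSeq on GRCm38.p6 (250 bases before to 50 after the start) matched 9 of the 10 genes, all but Ugt3a2. The letters GTTAAT, the half-site of the liver factor HNF1, were found on either strand in 3 of the 9 promoters (Ugt1a1, Ugt2a3 and Ugt3a1), against 7.20% of 27025 promoters. The nuclear receptor half-site AGNTCA was found in 8 of 9, against 46.5%. Neither a direct repeat of that half-site with 3 bases between nor GCGTG, the core of the site of the aryl hydrocarbon receptor, was found in any of the 9, against 0.074% and 32.5% of all promoters. The 130 bases before the start are shown for Ugt1a1, with the HNF1 half-site in capitals 41 bases before the start, and for Ugt2b5, Ugt2b36 and Ugt2b38, with the letters AGGTCA in capitals 22, 25 and 25 bases before it. By the measure above, the level of Ugt2b38 correlated by 0.37 with that of Ugt2b5 and by 0.24 with that of Ugt2b36. Ugt2b38 had only 0 to 49 counts per mouse, and the part of counting error in these 2 values was not tested.
Ugt1a1, chr1:88211829-88211958, plus strand: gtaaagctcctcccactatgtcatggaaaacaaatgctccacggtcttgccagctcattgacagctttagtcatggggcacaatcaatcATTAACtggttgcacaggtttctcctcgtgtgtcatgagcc
Ugt2b5, chr5:87140341-87140470, minus strand: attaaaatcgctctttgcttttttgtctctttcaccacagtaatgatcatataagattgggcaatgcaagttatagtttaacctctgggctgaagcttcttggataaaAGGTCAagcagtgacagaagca
Ugt2b36, chr5:87092556-87092685, minus strand: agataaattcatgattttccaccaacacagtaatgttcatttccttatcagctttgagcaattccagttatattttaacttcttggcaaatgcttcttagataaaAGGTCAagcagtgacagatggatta
Ugt2b38, chr5:87424204-87424333, minus strand: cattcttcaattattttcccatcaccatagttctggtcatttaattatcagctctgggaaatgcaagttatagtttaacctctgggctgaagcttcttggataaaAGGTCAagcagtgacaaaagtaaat
A match of letters is a description of these windows and says nothing of binding.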

How the data were processed

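Polyadenylated liver RNA of 48 male mice was read as unstranded single-end reads of 68 bases. The authors deposited an expected count per gene for the PWK and for the NOD allele, made with EMASE per the file names, a method that shares out reads that match several genes or alleles. Per the submitters' processing notes, CASAVA 1.7.0, Bowtie 1.1.2 and GRCm38/mm10 were used, and no source used here gives other settings. The 96 label entries are 2 flow cell runs of each mouse, counted once. Of 38924 genes, 37607 matched GENCODE M21, and the other 1317 held 0.159% of counts.

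Both alleles were summed and rounded, filtered by edgeR's filterByExpr, scaled by TMM and fitted with edgeR 4.0.16 (R 4.3.3) by 8 group means, glmQLFit with robust settings and the quasi-likelihood test, with Benjamini-Hochberg adjustment over 11979 genes. Allele ratios were fitted with a term per mouse over 9362 autosomal genes with a mean of at least 20 counts. The scripts were tested on simulated data. The Ugt genes and the gene lists were chosen with earlier results of these data known. All 10 genes were examined in every comparison, and some that were not called are given as a range. From other lists up to 4 genes with the smallest p are named per main comparison, of which some are given here only in counts. For likeness, the 2 non-Ugt genes with the highest correlation are named. Some items that these rules select are not reported here. The longest coding transcript of each gene gave the length for CPM per kb, and log2 CPM used a pseudocount of 0.5. Alternatives were DESeq2 1.42.0, other filters and scalings, each lane set left out, the mice labelled 25 left out, and the lane set as a block.

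The labels state that a replicate number marks a shared lane set, so a paired fit was made. Deviations of mice within a lane set correlated by -0.00468 on average and those of other mice by 0.00112, and 29 of 168 pairs exceeded 0.1. No 2 mice were alike within sampling noise (chi-square per gene 4.3 to 51.8 over 120 pairs within groups). Intervals and floors cover counting error only.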

Additional observations from a re-analysis of the deposited data

Results flagged for a closer look

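The CPM or PWK share of 1 gene in 1 group of 6 mice was taken as a set, and 152 such sets were examined. In 14 sets a mouse lay far from the other 5, by a cut-off that flags about 1 in 20 sets by chance. The sets reuse the same mice, and several of the genes varied together. The count of 14 can therefore not be compared with that rate. A single PWKxNOD mouse on the high diet and of the older age (replicate 2) stood out in 4 genes, with 1200 CPM of Ugt2b5 (next 896), 872 CPM of Ugt2b34 (next 550), 257 CPM of Ugt2b35 (next 202) and 882 CPM of Ugt2b36 (next 641). It was 1 of the 8 mice above 100 CPM of pancreas markers, as was replicate 2 of the older PWKxNOD mice on the normal diet, which had 258 CPM of Ugt2a3 (next 206). The part of those transcripts in these values was not tested.

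Of the younger NODxPWK mice on the normal diet, replicate 2 was low in Ugt1a1 at 138 CPM (next 165) and replicate 6 was high in Ugt3a1 at 130 CPM (next 111). The scarce Ugt2b38 was high at 5.44 CPM in replicate 5 of the older PWKxNOD normal-diet mice (next 1.72), at 7.63 CPM in replicate 6 of the younger PWKxNOD normal-diet mice (next 3.25) and at 2.2 CPM in replicate 5 of the older NODxPWK normal-diet mice (next 0.953). The PWK share of Ugt2b34 was low at 45.2% in replicate 1 of the older PWKxNOD normal-diet mice (next 50.1%), the library with the fewest counts. The PWK share of Ugt3a2 was high at 2.99% in replicate 4 of the older PWKxNOD high-diet mice (next 0.42%), at 0.71% in replicate 6 of the younger PWKxNOD high-diet mice (next 0) and at 1.52% in replicate 1 of the younger PWKxNOD normal-diet mice (next 0.25%).

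The diet difference of Ugt2b35 differed between older and younger mice by 0.64 on the log2 scale, by the test of the interaction itself.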

How the results depend on the processing

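The count of Ugt genes called in each comparison was set against that under each alternative. Of these alternative counts, 159 were equal to the main count or within 1.5 times of it, 20 were lower and 5 higher. With age 4 genes were called, and 2 without the mice labelled 25 or without those with pancreas transcripts. The diet called 0 genes, and 1 with DESeq2 or without replicate 5 (range 0 to 1 over replicates left out). The cross called 2 genes, 0 without the mice labelled 25 or with the clock score, and 2 to 4 over replicates left out. The diet by age interaction called 1 gene, and 0 with no filter on low counts, without the mice labelled 25, without those with pancreas transcripts or with the clock score (0 to 1 over replicates left out). Diet in older mice called 1, and 0 without the mice labelled 25. Parent of origin called 0, and 1 without the mice with pancreas transcripts (0 to 1 over replicates left out). Age on the allele ratio called 1, and 0 without the mice labelled 25 or those with pancreas transcripts (0 to 1 over replicates left out). The cause of these changes was not tested. With the lane set as a replicate block no call of the 10 genes changed, the counts being 4 for age, 0 for diet and 2 for the cross. The PWK over NOD log2 ratio of the summed Ugt2b genes was 0.23, a value of the whole sum and not of Ugt2b1 or Ugt2b34.

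Over all genes, age called 1439, 777 without the mice labelled 25 and 740 with the clock score, and the cross called 1281, 847 and 62 under the same settings. Diet called 41, 125 with DESeq2, 24 with no filter, 15 without the shallowest barcode, 13 without pancreas transcripts, 0 without the mice labelled 25 or with the clock score, and as few as 6 without 1 replicate. The diet by age interaction called 74, and under the same settings 164, 23, 38, 0, 0 and 11, the last with the clock score, and as few as 4 without 1 replicate. Diet in older mice called 445, 290 with no filter, 5 without the mice labelled 25, 129 without pancreas transcripts, 53 with the clock score and as few as 176 without 1 replicate. Diet in younger mice called 0, 10 with DESeq2 and 1 without the mice labelled 25. Age by cross called 6, 40 with DESeq2, 3 with the block, 2 without the shallowest barcode, 24 without pancreas transcripts, 0 without the mice labelled 25 and as few as 0 without 1 replicate. Diet by cross called 15, 52 with DESeq2, 2 with no filter, 4 without the mice labelled 25 or with the clock score, 27 without pancreas transcripts and 0 to 90 without 1 replicate. The PWK over NOD ratio called 4086, and 2684 at a minimum of 100 counts. Parent of origin called 25, and 16 without replicate 6. Age on the ratio called 66, 41 and 39 without replicates 1 and 6, and 43 without pancreas transcripts. Diet on the ratio called 2, 16 without the mice labelled 25, and 0 without pancreas transcripts or replicate 2 or 6. Depth limits Ugt2b38, with 0 to 49 counts per mouse.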
